A study of Mus musculus with 12 samples.

Results

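Ring1 loss was examined in mouse oocytes that also lacked Rnf2. The comparison set 3 arrays of Ring1/Rnf2 double mutant oocytes against 3 arrays of Rnf2 mutant oocytes, chosen by their genotype labels, which are 6 of the 12 arrays in the study. The other 6 arrays hold Ring1 mutant and control oocytes, in which Rnf2 is intact. They were used to ask whether the same loss of Ring1 changed the same genes while Rnf2 was present. Expression was measured across 21621 genes on whole-transcript microarrays, as log2 intensity.

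The Rnf2 mutant oocytes were Ring1+/+ and Rnf2 F/F with the Zp3-cre transgene, and the double mutant oocytes were Ring1-/- and Rnf2 F/F with Zp3-cre. Control oocytes were Ring1+/+ and Rnf2 F/F, and Ring1 mutant oocytes were Ring1-/- and Rnf2 F/F, both without Cre. All 4 genotypes therefore carried floxed Rnf2, and both groups of the comparison carried Cre. The Zp3 promoter drives Cre in growing oocytes, so Rnf2 is lost during oocyte growth, whereas Ring1-/- is a germline genotype carried by every cell of the female. Every sample held 50 germinal vesicle oocytes at the end of growth, in the arrest of meiotic prophase. They were pooled from several superovulated females aged 5 to 10 weeks, of a mixed 129/Sv and C57BL/6J background, and were collected 46 h after 5 U of PMSG in medium with 2.5 µM milrinone, an inhibitor that holds oocytes in arrest. The labels call the 3 samples of a genotype biological replicates. The sources used here do not say whether pools of a genotype had females in common, so the p-values cover the spread between pools alone.

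Ring1 (RING1A) and Rnf2 (RING1B) are paralogous ubiquitin ligases that form the catalytic core of Polycomb repressive complex 1 (PRC1), which monoubiquitinates histone H2A. Every PRC1 complex holds one or the other, together with a Pcgf protein, and in many cell types PRC1 keeps developmental regulators silent. Growing oocytes transcribe and store the RNA that supports the first divisions of the embryo and then fall silent at the end of growth, so the RNA of fully grown oocytes reflects what was made and kept during growth.

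Array medians lay between 3.81 and 3.93 log2. Correlations over all genes lay between 0.996 and 0.997 within the Rnf2 mutant or the double mutant arrays and between 0.979 and 0.982 across them, and no arrays held identical values. A floor was set at 3.76 log2, the level below which 95% of 1042 olfactory receptor genes lay, since these genes are mostly silent in oocytes. Of all genes, 12961 had a mean above it. The 14 oocyte markers, among them the zona genes Zp1, Zp2 and Zp3, were all above the floor in both groups, and their summed level was 14.70 to 14.74 log2 in the Rnf2 mutant and 14.60 to 14.64 in the double mutant. In the limma comparison below, 5 of the 14 (35.7%) were called lower in the double mutant and 1 (7.14%) higher. The shares of all genes were 16.3% and 13.9%. The largest of these falls were Figla (-0.79 ± 0.09 log2), Kit (-0.51 ± 0.06) and Mos (-0.45 ± 0.09). In bulk samples fewer cells of a type and less RNA per cell cannot be told apart.

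The targeted genes were examined first. Rnf2 read 5.60, 5.93 and 6.04 log2 in the Rnf2 mutant arrays and 5.90, 5.68 and 6.01 in the double mutant arrays, and its mean was 8.33 in control and 8.46 in Ring1 mutant oocytes. Both groups of the comparison were therefore lower than the groups without Cre and overlapped each other, with a difference of 0.01 ± 0.11 log2 (SE, n = 3 arrays per group; limma adjusted p = 0.97). Ring1 read 3.92 in each of the Rnf2 mutant arrays and 3.99, 3.50 and 3.87 in the double mutant arrays. These values lie at the floor in every genotype, with means of 3.84 in control and 3.79 in Ring1 mutant oocytes, so the Ring1 probe set does not check the Ring1 genotype. The sources used here do not say which part of either gene its probe set covers.

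Loss of Ring1 in Rnf2-deleted oocytes was accompanied by changes in a large share of the transcriptome, and the large changes were mostly rises. With limma, 6527 of 21621 genes (30.2%) were called at an adjusted p below 0.05, of which 3011 (13.9%) were higher and 3516 (16.3%) lower in the double mutant. Called rises had a median of 0.54 log2 and called falls one of -0.39, against -0.03 for all genes. The 3 arrays of one group lay apart from those of the other in 42.1% of genes. Among genes called with at least a 2-fold change, 628 (2.90%) were higher and 157 (0.726%) lower, and at 3 log2 or more 47 were higher and 1 was lower. The balance of small changes depended on the scaling: 4480 genes were higher and 2169 lower when arrays were centred on the brightest 25% of their genes, and 2152 and 7012 when they were centred on the median gene. Those scalings put the median change of all genes at 0.07 and -0.16 log2, so small changes are best read relative to that shift.

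**Figure D1:**
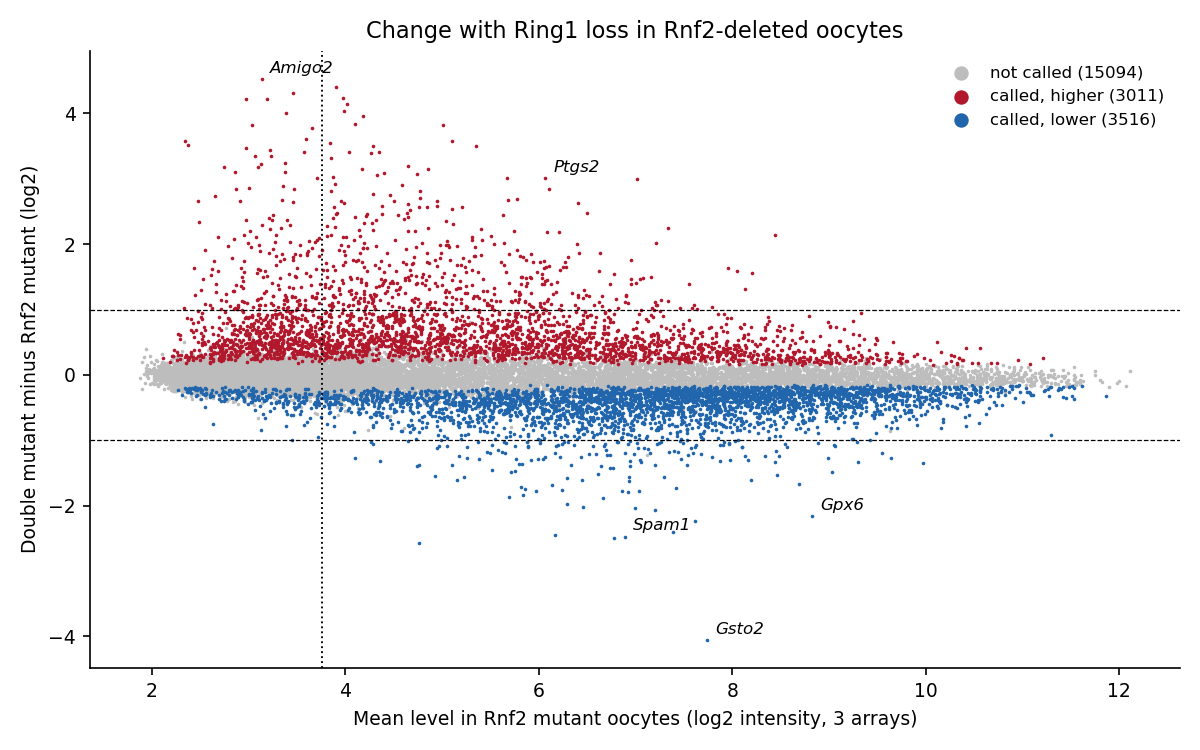
Change with Ring1 loss in Rnf2-deleted oocytes (double mutant minus Rnf2 mutant, log2) against the mean level in the 3 Rnf2 mutant arrays (log2 intensity), with 1 point per gene. Red points are the 3011 genes called higher and blue points the 3516 called lower. Dashed lines mark a 2-fold change and the dotted line marks the floor at 3.76 log2. Called rises of at least 2-fold start at a median of 4.34 log2, and such falls at one of 6.78.

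The genes that rose at least 2-fold lay near the level of the median gene in all 3 other genotypes, which was 4.34 to 4.40 log2 by array. Their median level was 4.34 log2 in the Rnf2 mutant, 4.31 in control, 4.30 in the Ring1 mutant and 6.18 in the double mutant. In 184 of the 628 genes (29.3%) the Rnf2 mutant mean was at or below the floor, against 40.5% of all genes, so these changes are compressed. The genes that fell at least 2-fold had higher levels, with medians of 6.78 in the Rnf2 mutant, 6.66 in control, 6.44 in the Ring1 mutant and 5.31 in the double mutant. In 625 of the 628 rises the 3 double mutant arrays lay above all 9 other arrays, against 13.4% of all genes. In 130 of the 157 falls they lay below all 9, against 16.1% of all genes. The double mutant arrays, and the Rnf2 mutant arrays among the 9, had served to choose these genes. These counts were thus in part fixed in advance.

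Of the 12 largest rises 11 are described here. Amigo2, an adhesion protein of the immunoglobulin superfamily, read 2.89, 3.18 and 3.35 log2 in the Rnf2 mutant arrays and 7.60, 7.65 and 7.75 in the double mutant arrays. Its arrays did not overlap, and the change of 4.53 ± 0.13 (limma adjusted p = 4.5e-10) was the largest rise. Ddah1, an enzyme that degrades methylated arginines, read 3.94, 3.89 and 3.89 against 8.41, 8.25 and 8.27, a rise of 4.41 ± 0.08. Bmp2, a secreted bone morphogenetic protein, read 3.50, 3.42 and 3.46 against 7.77, 7.84 and 7.72, a rise of 4.32 ± 0.09. In both genes the double mutant arrays were more than 4 log2 above every Rnf2 mutant array.

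Plod2, a lysyl hydroxylase that modifies collagen, read 3.94, 3.86 and 4.14 log2 in the Rnf2 mutant and 8.31, 8.24 and 8.08 in the double mutant. Rbm46, an RNA-binding protein of germ cells, read 3.13, 3.23 and 3.21 against 7.38, 7.48 and 7.36. Both rose without overlap, by 4.23 ± 0.11 and 4.22 ± 0.09. The other rises of this size were Gm4340 (4.22), Tbl1x, a subunit of nuclear corepressor complexes (4.15), the X-linked Xlr (4.04), the autophagy gene Gabarapl1 (4.00), the keratin gene Krt79 (3.96) and the small GTPase gene Rhod (3.84), all with adjusted p of at most 2.4e-08 in limma. Xlr belongs to a multigene family whose members may share probes, so its identity is uncertain.

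**Figure D2:**
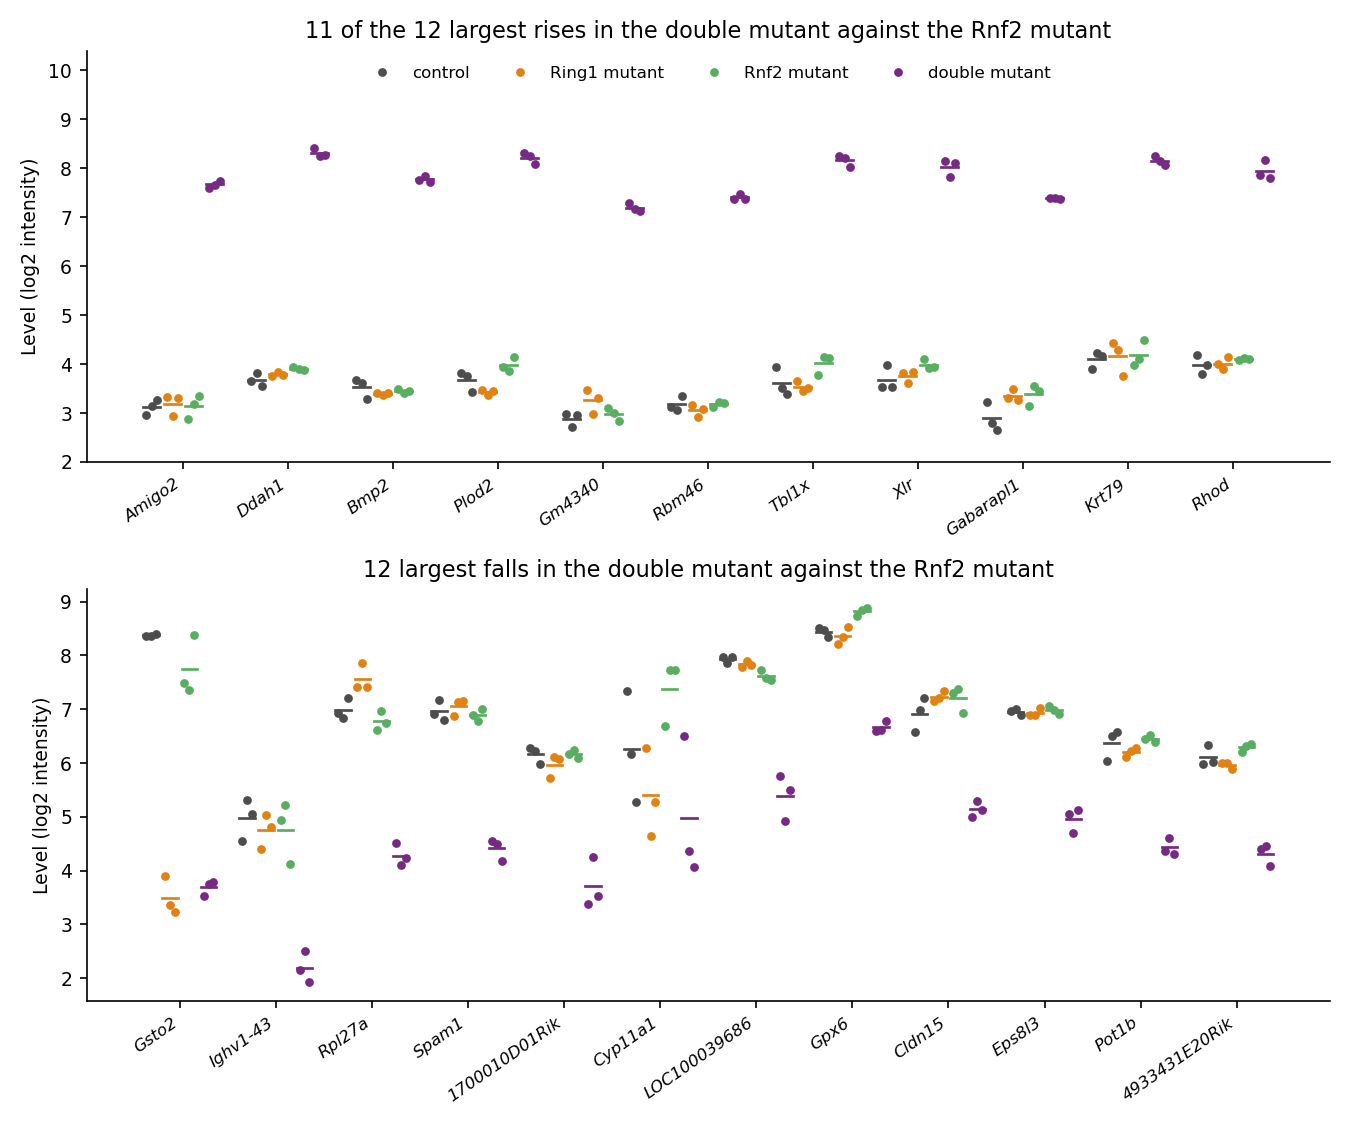
Level (log2 intensity) of 11 of the 12 largest rises (top) and the 12 largest falls (bottom) in each of the 12 arrays, with 1 point per array, a bar at the mean of each genotype and the genotypes in colour. In the top panel the double mutant arrays stand alone above all others, whereas in the bottom panel Gsto2 is low in both genotypes without Ring1 and Cyp11a1 varies widely between arrays of every genotype.

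The 12 largest falls were smaller and less uniform. Spam1, a hyaluronidase best known from the sperm surface, read 6.89, 6.78 and 7.00 log2 in the Rnf2 mutant and 4.55, 4.50 and 4.19 in the double mutant, and fell by 2.48 ± 0.12 (limma adjusted p = 2.35e-08). Gpx6, a glutathione peroxidase, read 8.74, 8.85 and 8.88 against 6.60, 6.61 and 6.79 and fell by 2.16 ± 0.09. Cldn15, a tight junction claudin, read 7.30, 7.37 and 6.94 against 5.00, 5.30 and 5.13 and fell by 2.06 ± 0.15. In each of these genes the groups lay apart by more than 1 log2. Eps8l3 and Pot1b, the latter a telomere-binding protein, fell by 2.03 ± 0.10 and 2.02 ± 0.13, and the genes 1700010D01Rik, LOC100039686 and 4933431E20Rik fell by 2.45, 2.23 and 1.98.

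Other large falls carry a limit of their own. Rpl27a, a ribosomal protein gene, fell by 2.50 ± 0.15 on its brightest probe set, but its other probe sets read 0.85 and -0.60, so the direction of the gene is unsettled. Ighv1-43, an immunoglobulin variable segment of a large multigene family, fell by 2.57 ± 0.28 and its second probe set read -1.60. Gsto2, an omega-class glutathione transferase, gave the largest fall and is taken up below with the genes that changed in both Ring1 comparisons. Cyp11a1, the first enzyme of steroid synthesis, is described with the granulosa cell markers.

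Promoter sequences are shown for Amigo2, the largest rise, and for Spam1, a large fall. Both are RefSeq sequences of the GRCm38.p6 assembly, from 250 bases before to 50 bases after the gene's start, written 5′ to 3′ on the strand of the gene with CG dinucleotides in capitals. The window of Amigo2 held 46 CG dinucleotides at 83.3% G and C, and that of Spam1 held 0 at 39.7%, against medians of 7 and 52.7% over all 27025 promoters of the table.
Amigo2 (chr15:97247238-97247537, minus strand): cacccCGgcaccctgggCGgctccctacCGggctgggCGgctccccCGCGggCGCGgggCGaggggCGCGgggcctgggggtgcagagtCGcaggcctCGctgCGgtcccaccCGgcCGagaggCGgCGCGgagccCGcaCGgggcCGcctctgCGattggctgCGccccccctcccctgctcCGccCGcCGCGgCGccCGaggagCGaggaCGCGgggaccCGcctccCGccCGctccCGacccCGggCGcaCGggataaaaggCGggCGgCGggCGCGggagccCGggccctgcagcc
Spam1 (chr6:24790938-24791237, plus strand): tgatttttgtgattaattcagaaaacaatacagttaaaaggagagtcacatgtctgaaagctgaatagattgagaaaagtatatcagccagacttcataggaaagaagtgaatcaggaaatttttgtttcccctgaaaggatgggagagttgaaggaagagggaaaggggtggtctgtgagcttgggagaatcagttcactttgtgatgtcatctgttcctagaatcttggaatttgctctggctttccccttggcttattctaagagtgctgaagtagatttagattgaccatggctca
These 2 windows were picked after their genes' values were seen and do not stand for the rises or the falls. Base composition over the whole sets is not reported, because promoters were matched for 76.3% of the rises of at least 2-fold, 74.5% of such falls and 72.2% of all genes, under the 80% needed, and the check is therefore void.

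Gene lists are described against the shares of all genes that rose (13.9%) and fell (16.3%), with no test of a list. Of 38 measured Hox genes, which set position along the body axis, 12 (31.6%) rose and 0 fell, with a median change of 0.16 log2 against -0.03 over all genes. Hoxd8 read 2.91, 2.68 and 3.03 log2 in the Rnf2 mutant and 5.53, 5.72 and 5.88 in the double mutant, a rise of 2.84 ± 0.11 (limma adjusted p = 4.1e-09). Hoxc13 rose by 2.37 ± 0.20 and Hoxd13 by 2.13 ± 0.17, both without overlap between the arrays. Of the 38 genes 26 were not called, and 12 had a mean above the floor, so a change of a silent Hox gene that stayed near the floor could not be seen. With arrays centred on the median gene 12 rose and 2 fell.

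Of 91 other homeobox and Pax genes 25 (27.5%) rose and 2 fell, with a median of 0.16 log2, and rises outnumbered falls under each scaling (22 and 9 centred on the median gene). Among the rises, Pax6, needed for eye and forebrain development, read 4.30, 4.20 and 4.32 log2 against 7.54, 7.63 and 7.83 and rose by 3.39 ± 0.09. Its second, dim probe set read -0.18. Prrx1, a regulator of limb and craniofacial mesenchyme, rose by 2.56 ± 0.08, from 4.80, 4.83 and 4.90 to 7.48, 7.32 and 7.42. The 2 falls were the kidney regulator Pax2 (-0.81 ± 0.09) and Irx6 (-0.32 ± 0.09), and the call of Irx6 was lost without Rnf2 mutant replicate 2 (limma adjusted p = 0.057).

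Of 77 Gata, Sox, Tbx, Fox and basic helix-loop-helix regulators 20 (26.0%) rose and 4 fell, with a median of 0.12 log2, and rises outnumbered falls under each scaling. Foxd1 rose by 1.53 ± 0.14 and the Notch effector Hey2 by 1.20 ± 0.13. The falls were led by Tbx4, a hindlimb and lung regulator, which read 8.54, 8.60 and 8.58 log2 against 7.95, 7.88 and 7.95 and fell by 0.65 ± 0.06, and by Gata3 (-0.37 ± 0.08). Tbx4 was thus far above the floor in both groups, unlike most genes of the list, of which 31 had a mean above it.

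Secreted signals were close to the shares of all genes. Of 86 ligands and antagonists of the BMP, TGF-beta, Wnt, Fgf and Hedgehog families 16 (18.6%) rose and 11 (12.8%) fell, against 13.9% and 16.3% of all genes, with a median of 0.02 log2, and the balance reversed after quantile normalization (13 and 16) and with arrays centred on the median gene (13 and 21). Beside Bmp2, Fgf16 rose by 3.60 ± 0.12, from 3.68, 3.47 and 3.62 to 7.28, 7.28 and 7.02, and Fgf18 rose by 2.20 ± 0.12. The largest falls were Sfrp4, a secreted Wnt antagonist (-1.78 ± 0.58), and Inhba, the inhibin and activin subunit (-1.30 ± 0.35), whose standard errors were several times those of the rises. Their values followed the granulosa cell genes described further on. The call of Sfrp4 was lost on leaving out any of the Rnf2 mutant arrays or double mutant replicate 2 or 3 (limma adjusted p from 0.060 to 0.13), and that of Inhba without Rnf2 mutant replicate 3 (0.055) or double mutant replicate 2 (0.056).

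The next list holds genes of the germline and meiosis that PRC1.6, a variant complex, silences in other mouse cells. Of 56 measured, 27 (48.2%) rose, against 13.9% of all genes, 10 of them at least 2-fold, and 8 fell, with a median of 0.23 log2, and rises outnumbered falls under each scaling (19 and 10 centred on the median gene). After Rbm46 the largest rises were Spata22, a meiotic recombination factor (3.58 ± 0.13), and Meioc, a factor that sustains meiotic prophase (3.35 ± 0.21). Spata22 read 2.49, 2.11 and 2.43 log2 against 5.81, 6.19 and 5.79, and Meioc read 3.32, 2.97 and 3.42 against 6.57, 6.76 and 6.44. Both were at the floor in every Rnf2 mutant array and above it in every double mutant array. Sohlh1 and Sohlh2, partner transcription factors of early oocyte growth, rose by 2.47 ± 0.16 and 2.23 ± 0.13. The falls included Tdrd1, a Tudor protein of the piRNA pathway, which was bright at 9.88, 9.87 and 9.88 and fell by 0.47 ± 0.06, and the recombination gene Rnf212, which was at the floor (-0.45 ± 0.10).

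PRC1.6 contains the basic helix-loop-helix partners Mga and Max, which bind an E-box, so the promoters of this list were searched for the letters CACGTG. The motif reads the same on both strands. Of 56 genes 48 had a promoter in the RefSeq table, and 18 of them (37.5%) held the motif, against 7.24% of all 27025 promoters of the same length and 8.39% of the 15610 genes tested that had one. Of the 18 with the motif 11 rose and 2 fell, with a median of 0.39 log2, and of the 30 without it 13 rose and 6 fell, with a median of 0.13. The difference between these groups was not tested, and the list had been assembled from genes of this pathway. The letters TCCCGC or GCGGGA of an E2F site, which can share a single end base with the E-box, were in 20 of the 48 (41.7%), against 20.0% of all promoters and 27.9% of those of the genes tested. A match of letters is no proof of a bound site.

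The windows of 2 members that rose and 1 that fell are given below, from the same table and assembly, 250 bases before to 50 after the start and 5′ to 3′ on the strand of the gene, with CACGTG in capitals. Rbm46 held 1 copy, 34 bases before the start, Sohlh1 held 3 and Tdrd1 held 1.
Rbm46 (chr3:82876434-82876733, minus strand): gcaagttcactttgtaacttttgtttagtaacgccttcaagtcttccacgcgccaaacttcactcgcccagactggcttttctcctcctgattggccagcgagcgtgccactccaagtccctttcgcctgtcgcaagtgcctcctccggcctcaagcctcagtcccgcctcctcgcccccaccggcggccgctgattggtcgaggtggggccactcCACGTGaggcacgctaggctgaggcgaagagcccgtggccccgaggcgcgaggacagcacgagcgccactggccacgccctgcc
Sohlh1 (chr2:25847199-25847498, minus strand): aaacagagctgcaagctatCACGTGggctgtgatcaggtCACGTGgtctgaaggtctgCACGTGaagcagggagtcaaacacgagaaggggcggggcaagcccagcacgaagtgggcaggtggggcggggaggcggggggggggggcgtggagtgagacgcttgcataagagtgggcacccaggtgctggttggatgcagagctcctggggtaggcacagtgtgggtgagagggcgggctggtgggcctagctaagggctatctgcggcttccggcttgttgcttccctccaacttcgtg
Tdrd1 (chr19:56825959-56826258, plus strand): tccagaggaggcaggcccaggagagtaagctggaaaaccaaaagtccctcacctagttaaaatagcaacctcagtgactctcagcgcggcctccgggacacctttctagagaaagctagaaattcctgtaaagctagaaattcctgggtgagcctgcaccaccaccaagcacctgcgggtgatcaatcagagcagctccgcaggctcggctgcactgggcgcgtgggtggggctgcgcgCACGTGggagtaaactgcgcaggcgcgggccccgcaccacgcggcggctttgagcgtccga
The windows of Meioc and Spata22, which rose nearly as far as Rbm46, held 0 copies.

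Of 37 pluripotency and trophoblast regulators 12 (32.4%) rose and 3 fell, with a median of 0.16 log2, and rises outnumbered falls under each scaling. Eomes, a regulator of trophoblast and mesoderm, read 2.97, 3.07 and 2.90 against 6.38, 6.73 and 6.23 and rose by 3.47 ± 0.10. The placental gene Plac1 rose by 2.67 ± 0.14 and Sox2, a core pluripotency factor, by 2.37 ± 0.10. Sall4, which oocytes need to mature, fell from 10.09, 10.12 and 9.99 to 9.60, 9.53 and 9.57, a change of -0.50 ± 0.07, and Esrrb fell by 0.34 ± 0.08. Of the 37 members 22 were not called.

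Imprinted genes, which are expressed from a single parental allele in the embryo, moved both ways. Of 55 measured, 16 (29.1%) rose and 9 (16.4%) fell, with a median of 0.03 log2, and the balance reversed with arrays centred on the median gene (13 and 19). Smoc1 rose by 2.66 ± 0.10, Sfmbt2, a Polycomb protein gene, by 2.11 ± 0.10 and the growth factor gene Igf2 by 1.91 ± 0.11, from 4.00, 3.53 and 3.74 to 5.80, 5.69 and 5.53. Impact fell by 0.93 ± 0.09 and the retrogene Mcts2 by 0.87 ± 0.08. No allele can be told apart in these values.

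Genes of the Polycomb complexes themselves changed in part. Of 37 measured PRC1 subunit genes 10 (27.0%) rose and 2 fell, with a median of 0.01 log2, and the balance reversed with arrays centred on the median gene (8 and 11). Bcor, a subunit of the variant complex PRC1.1, read 4.89, 4.84 and 5.10 against 7.60, 7.60 and 7.63 and rose by 2.67 ± 0.10, and was the single member to rise at least 2-fold. Pcgf5, the Pcgf subunit of another variant complex, rose by 0.97 ± 0.11 and Phc3, a subunit of canonical PRC1, by 0.92 ± 0.13. Of 27 genes of PRC2 and of the H2A deubiquitinase complex 7 rose and 8 fell, with a median of -0.12 log2 (2 and 16 centred on the median gene, 8 and 3 centred on the most abundant genes). Eed, a core subunit of PRC2, fell by 0.34 ± 0.07 from a high level of 10.26, 10.32 and 10.38, and Ogt, which interacts with the deubiquitinase, rose by 0.58 ± 0.06.

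Of 74 DNA methylation and histone modifying enzymes 14 rose and 23 fell, with a median of -0.05 log2, a balance that reversed with arrays centred on the most abundant genes (22 and 16). Kmt2a, the methyltransferase that opposes Polycomb at Hox genes, read 4.52, 4.56 and 4.68 against 7.37, 7.51 and 7.57 and rose by 2.90 ± 0.16. The demethylase gene Kdm3a rose by 1.25 ± 0.11 and the deacetylase gene Hdac6 by 1.21 ± 0.10. The largest falls were smaller, at -0.76 ± 0.14 for Sirt6 and -0.64 ± 0.06 for Kdm7a.

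**Figure D3:**
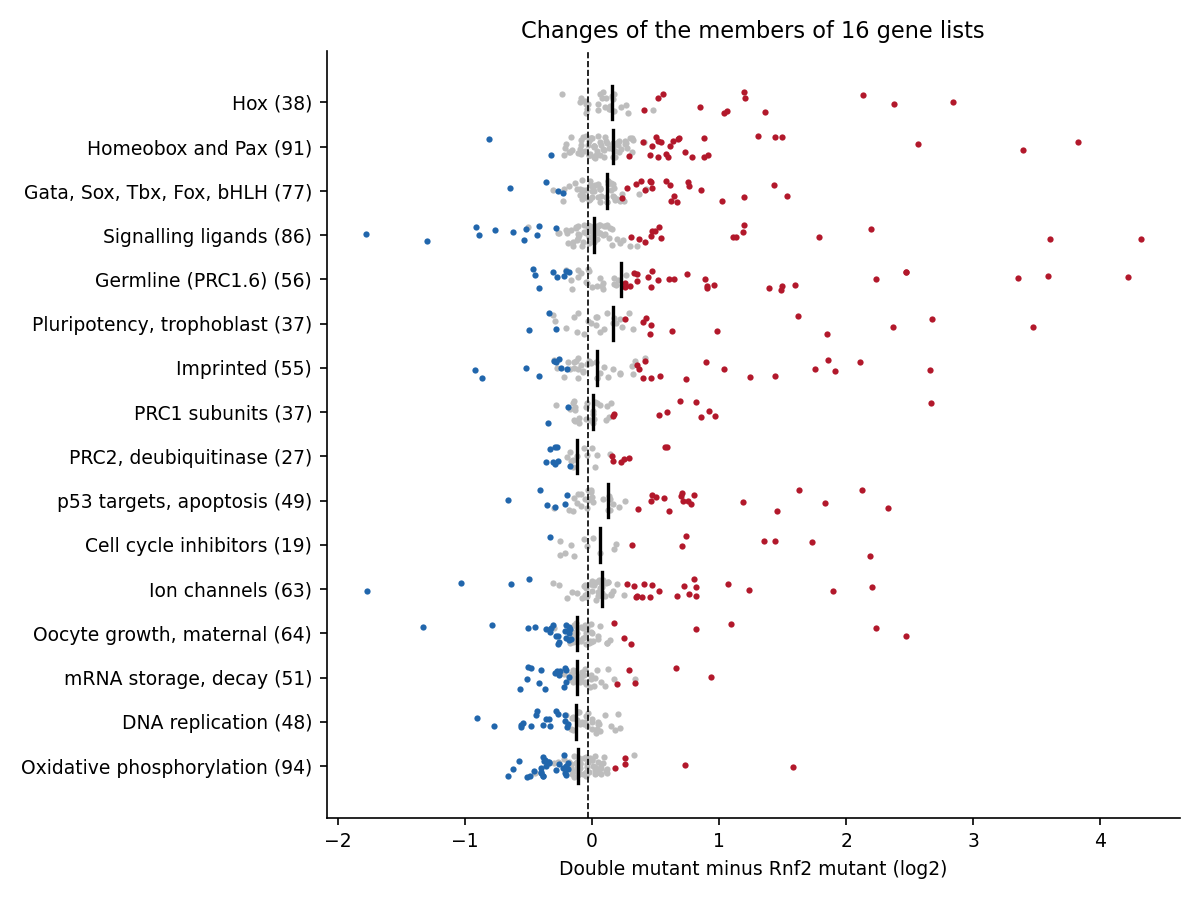
Double mutant minus Rnf2 mutant (log2) for each measured member of 16 gene lists, with the number of members in brackets. Red points were called higher, blue points lower and grey points were not called; the black bar is the list's median and the dashed line the median of all genes at -0.03 log2. Developmental and germline lists have long tails to the right, whereas DNA replication holds 18 falls and 0 rises.

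Genes of the oocyte's own programme fell more often than they rose on the deposited scale. Of 64 genes of oocyte growth, the zona and maternal effect 7 (10.9%) rose and 20 (31.2%) fell, against 13.9% and 16.3% of all genes, with a median of -0.12 log2, and with arrays centred on the most abundant genes 10 rose and 10 fell. All 64 had a mean above the floor. When the 12961 genes above the floor were fitted alone, 3654 fell and 2600 rose. The 16.3% of all genes is thus a low yardstick for the falls of this list. Sohlh1 and Sohlh2 led the rises, followed by Basp1 (1.09 ± 0.08). Nlrp4e, of the Nlrp family that is abundant in oocytes, read 9.24, 9.28 and 9.37 against 7.80, 8.04 and 8.07 and fell by 1.33 ± 0.10, the single fall of at least 2-fold in the list. Figla, the transcription factor that activates the zona genes, fell by 0.79 ± 0.09, from 7.94, 7.93 and 7.85 to 7.03, 7.24 and 7.09. Its targets Zp1, Zp2 and Zp3 were not called, with changes of 0.04, -0.07 and -0.02.

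Genes of meiotic arrest and resumption moved both ways. Of 65 measured, 11 rose and 19 fell, with a median of -0.10 log2, and the balance reversed with arrays centred on the most abundant genes (15 and 11). Ccne1, the cyclin E1 gene, rose by 1.73 ± 0.07, from 6.03, 6.01 and 5.99 to 7.84, 7.68 and 7.70. Gpr12 and Gpr3 encode related receptors that keep cyclic AMP high, and Gpr3 is the one that holds mouse oocytes in arrest. Gpr12 rose by 1.12 ± 0.11 and Gpr3 fell by 0.66 ± 0.08, from 8.34, 8.20 and 8.28 to 7.63, 7.53 and 7.67. Of 51 factors that store or degrade maternal mRNA 5 rose and 16 fell, with a median of -0.12 log2 (9 and 9 centred on the most abundant genes). The helicase gene Ddx6 rose by 0.94 ± 0.09 and the decapping genes Patl1 and Dcp2 fell by 0.57 ± 0.08 and 0.51 ± 0.06.

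Of 20 measured genes of zygotic genome activation, which the mouse embryo first transcribes after fertilization, 4 rose and 0 fell, with a median of 0.01 log2. These were Gm4340, Pramel17 (1.61 ± 0.19), Usp17lb (1.32 ± 0.19) and Usp17lc (0.70). All belong to gene families with close copies, so their identities are uncertain. With arrays centred on the median gene 4 rose and 5 fell.

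Stress and growth arrest genes follow, and then DNA replication genes. Of 49 p53 targets and apoptosis genes 18 (36.7%) rose, against 13.9% of all genes, and 6 fell, with a median of 0.13 log2, and rises outnumbered falls under each scaling. The Polo-like kinase gene Plk2 read 4.32, 4.15 and 4.36 against 6.54, 6.63 and 6.65 and rose by 2.33 ± 0.09, Plk3 rose by 2.12 ± 0.09 and the pro-apoptotic gene Pmaip1 by 1.83 ± 0.16. The initiator caspase gene Casp8 fell by 0.66 ± 0.09. Of 19 cell cycle inhibitors, D cyclins and Gadd45 genes 7 (36.8%) rose and 1 fell, with a median of 0.06 log2 (6 and 6 centred on the median gene). Gadd45b rose by 2.18 ± 0.13, Gadd45a by 1.73 ± 0.09 and the kinase inhibitor gene Cdkn1c by 1.44 ± 0.10.

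Of 48 DNA replication genes 0 rose and 18 (37.5%) fell, against 16.3% of all genes, with a median of -0.13 log2, and falls outnumbered rises under each scaling (5 rises and 12 falls with arrays centred on the most abundant genes). The falls were small. Pole2, a subunit of DNA polymerase epsilon, read 6.45, 6.32 and 6.63 against 5.54, 5.56 and 5.59 and fell by 0.90 ± 0.07. Pole, the catalytic subunit of the same polymerase, fell by 0.77 ± 0.09, and all 48 genes were above the floor. When the 12961 genes above the floor were fitted alone, 3654 fell and 2600 rose, a larger share of falls than over all genes.

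Lists of cell shape, matrix and excitability are set against the 13.9% of all genes that rose and the 16.3% that fell. Of 60 keratin, cadherin, claudin and adhesion genes 15 rose and 3 (5.00%) fell, with a median of 0.02 log2 (12 and 13 centred on the median gene). Beside Amigo2 these included Krt8, a keratin of simple epithelia (2.63 ± 0.15), and the epithelial adhesion gene Epcam (1.61 ± 0.10). Of 81 collagen and matrix genes 10 (12.3%) rose and 7 (8.64%) fell, which is no more than over all genes, with a median of -0.01 log2, and falls outnumbered rises after quantile normalization (11 and 12) and with arrays centred on the median gene (10 and 17). Fbln5, an elastic fibre protein gene, rose by 2.59 ± 0.16 and fibronectin, Fn1, by 1.84 ± 0.09, whereas the laminin gene Lama5 fell by 1.11 ± 0.07. Of 63 ion channel genes 19 (30.2%) rose and 4 fell, with a median of 0.07 log2, and rises outnumbered falls under each scaling. Trpc1 rose by 2.20 ± 0.11, and the proton channel gene Hvcn1 read 6.78, 6.90 and 6.92 against 5.08, 5.03 and 5.18 and fell by 1.77 ± 0.08.

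The redox list split evenly. Of 43 metallothionein, glutathione and antioxidant genes 10 (23.3%) rose and 10 fell, with a median of 0.01 log2. Gclc, the catalytic subunit of the first enzyme of glutathione synthesis, read 6.17, 6.21 and 6.37 against 7.87, 7.87 and 7.95 and rose by 1.65 ± 0.07. Mt4 rose by 1.48 ± 0.07 and Hmox1, heme oxygenase 1, by 1.45 ± 0.15, and the largest falls were Gsto2 and Gpx6. Of 18 histone genes and variants 4 rose and 6 fell, with a median of -0.21 log2. The linker histone genes H1f5 and H1f2 rose by 1.57 ± 0.19 and 1.47 ± 0.10, and H2aj fell by 0.87 ± 0.17. Of 21 regulators of G-protein signalling 3 rose and 2 fell (2 and 3 after quantile normalization), led by Rgs16 (2.46 ± 0.09) and Rgs3 (-0.80 ± 0.07).

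Granulosa and cumulus cells surround the oocyte and can remain attached to it, so their markers were read array by array. Of 28 markers 7 rose and 8 fell, and the summed level was 10.61 to 10.95 log2 in the Rnf2 mutant and 11.18 to 11.40 in the double mutant. The rises were led by Ptgs2, the inducible cyclooxygenase, which read 6.08, 6.29 and 5.82 against 9.13, 9.03 and 9.07 (3.01 ± 0.12), by Krt8, and by Gata4 (1.02 ± 0.08). Their double mutant arrays lay within 0.11 log2 of each other. Ptgs2 and Krt8 were the brightest markers of the list in the double mutant, with means of 9.08 and 9.04 log2. Their means were 6.06 and 6.41 in the Rnf2 mutant. The higher sum thus rests largely on Ptgs2 and Krt8 and is no rise of the whole list. Most steroid and inhibin genes differed far more within groups. The steroid synthesis gene Cyp19a1 was an exception, at 7.79 log2 in each Rnf2 mutant array against 7.14, 7.12 and 6.91. It fell by 0.73 ± 0.07 (limma adjusted p = 6.2e-06). Cyp11a1 read 6.70, 7.73 and 7.73 against 6.50, 4.36 and 4.07, and Star, which carries cholesterol into mitochondria, read 5.02, 5.80 and 6.24 against 4.56, 3.38 and 3.51. Both were highest in replicate 1 among the double mutant arrays and lowest in replicate 1 among the Rnf2 mutant arrays.

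These falls came to -2.40 ± 0.66 log2 for Cyp11a1 (limma adjusted p = 0.014) and -1.88 ± 0.52 for Star (0.016). Leaving out Rnf2 mutant replicate 2 or 3 or double mutant replicate 2 or 3 took the adjusted p of Cyp11a1 to between 0.052 and 0.063. Leaving out Rnf2 mutant replicate 3 or double mutant replicate 2 or 3 took that of Star to between 0.056 and 0.067. Replicate 1 was likewise highest in the double mutant and lowest in the Rnf2 mutant for Inha, Inhba, Hsd3b1 and the matrix gene Sparc (5.73, 6.39 and 6.40 against 5.55, 4.65 and 4.73), whose fall of 1.20 ± 0.37 was lost without Rnf2 mutant replicate 2 or 3 or double mutant replicate 2 or 3 (adjusted p from 0.092 to 0.100). Other granulosa markers, among them Amh, Amhr2 and Fshr, had means below the floor in both groups. The part of adhering cells in any of these changes was not tested.

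**Figure D4:**
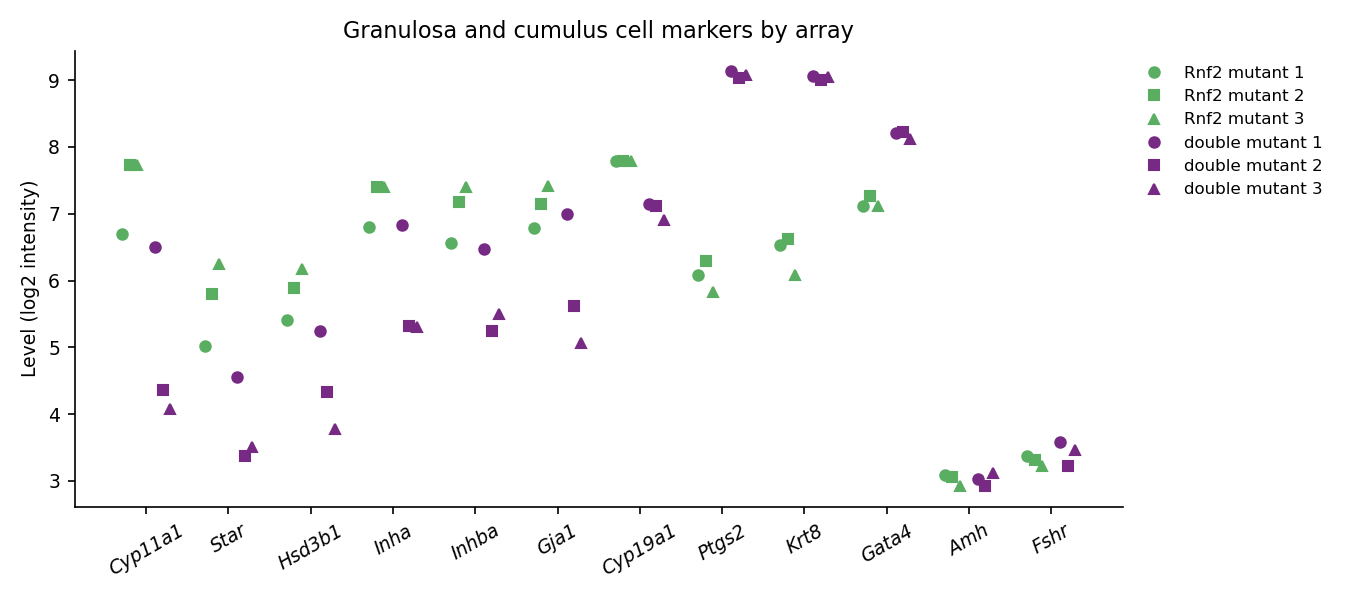
Level (log2 intensity) of 12 granulosa and cumulus cell markers in each of the 6 arrays, with Rnf2 mutant arrays in green, double mutant arrays in purple and the replicate number by symbol. Cyp11a1, Star, Hsd3b1, Inha, Inhba and Gja1 spread widely with double mutant replicate 1 above the other two, Ptgs2, Krt8 and Gata4 are tight within groups, and Amh and Fshr lie under the floor of 3.76.

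Markers of blood and immune cells were mostly low, and those of stroma, theca and endothelium were mixed. Of 14 blood and immune markers 10 were at or below the floor in both groups, 2 rose and 1 fell (2 and 3 centred on the median gene), and the summed level was 8.01 to 8.17 log2 in the Rnf2 mutant and 8.65 to 8.80 in the double mutant. The rises were the complement gene C1qb (0.98 ± 0.11) and the class II gene H2-Aa (0.83 ± 0.09). These were the brightest markers of the list, with double mutant means of 7.46 and 7.11 log2, so the higher sum rests largely on them. Of 17 markers of stroma, theca and endothelium 7 were at or below the floor in both groups, 1 rose and 4 fell (5 and 4 centred on the most abundant genes), and the summed level was 9.66 to 9.67 against 9.37 to 9.39. Myh11, a smooth muscle myosin, fell by 0.90 ± 0.07 and Pecam1 by 0.35 ± 0.05. These were the brightest markers of that list in the Rnf2 mutant, with means of 7.67 and 8.09 log2. The lower sum thus rests largely on them. The rise was Lum (0.69 ± 0.11), whose means were below the floor in both groups.

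The same loss of Ring1 was then examined where Rnf2 was intact. In Ring1 mutant against control oocytes, which share no array with the main comparison, limma called 168 of 21621 genes (0.777%), 66 higher (0.305%) and 102 lower (0.472%), against 30.2% where Rnf2 was deleted. At an unadjusted p below 0.05 the counts were 2299 and 8300. The 168 calls fell to between 73 and 97 on leaving out Ring1 mutant replicate 1 or 2 or any of the control arrays, which the 6527 calls did not do (5569 to 5953). Of the 628 genes that rose at least 2-fold without Rnf2, 10 were called higher and 5 lower with Rnf2, and their median change there was 0.01 log2. Of the 157 falls, 11 were called lower and 0 higher with Rnf2, with a median of -0.09.

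The difference between the effects of Ring1 loss with and without Rnf2 was tested directly, as an interaction. Both groups without Rnf2 carried Cre and both groups with Rnf2 did not. Rnf2 deletion and Cre therefore cannot be told apart in this test. It was called for 4112 genes in limma, of which 2164 (10.0%) were higher and 1948 (9.01%) lower in the Rnf2-deleted setting. It was called for 618 of the 628 rises (98.4%) and for 126 of the 157 falls (80.3%), which share the double mutant and Rnf2 mutant arrays with this test. Plod2 had the largest interaction, at 4.48 log2 (limma adjusted p = 8.2e-09), as it changed by -0.25 with Rnf2 and by 4.23 without. Amigo2 changed by 0.06 with Rnf2 and Bmp2 by -0.14, so nearly all of their rises was interaction. Gsto2 was not called in the interaction (0.83 log2, adjusted p = 0.10).

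**Figure D5:**
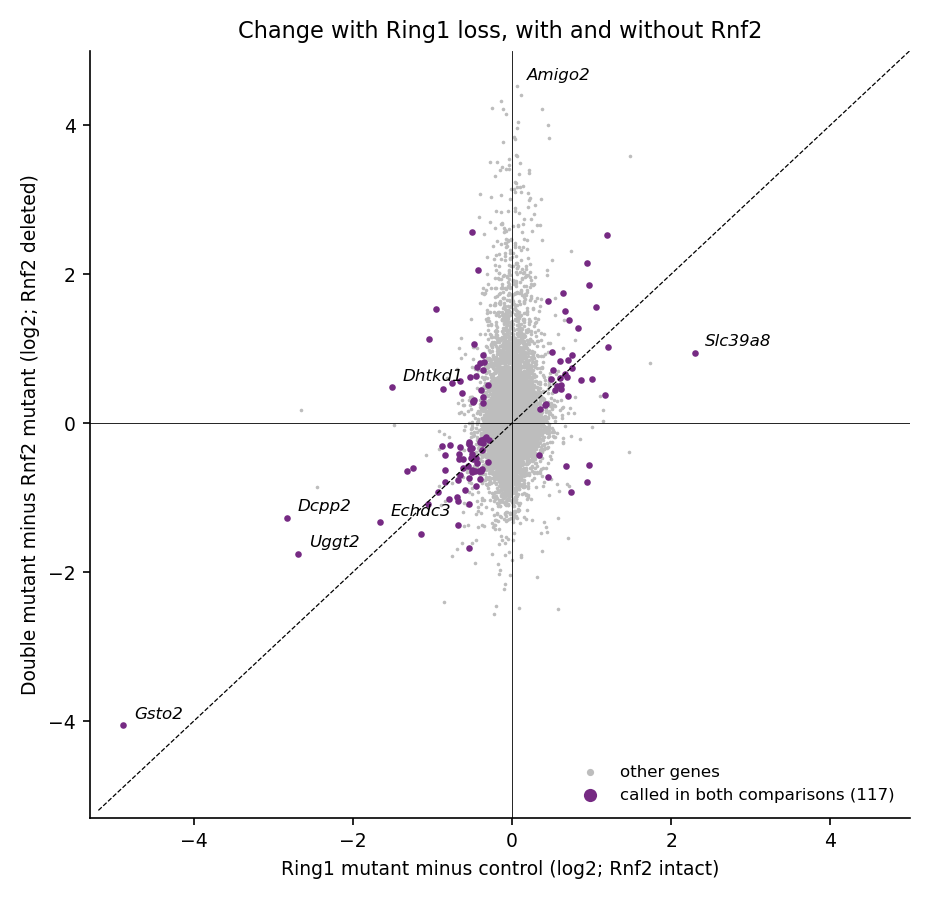
Change with Ring1 loss where Rnf2 is deleted (double mutant minus Rnf2 mutant, log2) against the change where Rnf2 is intact (Ring1 mutant minus control, log2), with 1 point per gene. Purple points are the 117 genes called in both comparisons and the dashed line marks equal change; most genes with large changes lie along the vertical axis, and Gsto2 lies near the line of equal change.

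A small group of genes changed with Ring1 loss in both settings. There were 117 genes called in both comparisons. They are 69.6% of the genes called with Rnf2 intact, against 30.2% of all genes called with Rnf2 deleted. They are 1.79% of the genes called with Rnf2 deleted, against 0.777% of all genes called with Rnf2 intact. Of the 117, 87 changed in the same direction (32 higher and 55 lower) and 30 in opposite directions, and 67 of the 87 were not called in the interaction. Leaving out single arrays of the Ring1 mutant against control comparison took the 117 to between 52 and 71 for Ring1 mutant replicates 1 and 2 and every control array.

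Gsto2 gave the largest fall in both settings. It read 7.49, 7.36 and 8.38 log2 in the Rnf2 mutant and 3.52, 3.75 and 3.79 in the double mutant, a change of -4.05 ± 0.23, and changed by -4.89 ± 0.23 from 8.38 in control to 3.49 in the Ring1 mutant. It was at the floor in both genotypes without Ring1. Uggt2, a glucosyltransferase of protein folding quality control, changed by -1.75 ± 0.25 without Rnf2 and by -2.69 ± 0.25 with it. Echdc3 read 7.05, 7.06 and 7.04 against 5.89, 5.54 and 5.72, a change of -1.33 ± 0.11, beside -1.65 ± 0.11 with Rnf2. Cpn1, a subunit of a plasma carboxypeptidase, changed by -0.65 ± 0.12 and -1.32 ± 0.12, with an interaction of 0.67 (limma adjusted p = 0.016).

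Other genes of this group were less settled. Dcpp2 and Dcpp3, near-identical neighbours on chromosome 17 that their probe sets may not tell apart, changed by -1.27 ± 0.31 and -0.61 ± 0.19 without Rnf2 and by -2.83 ± 0.31 and -1.24 ± 0.19 with it. The call of Dcpp3 without Rnf2 was lost on leaving out any of the 6 arrays except Rnf2 mutant replicate 1 (limma adjusted p from 0.058 to 0.084). The metal transporter gene Slc39a8 rose by 2.30 ± 0.30 with Rnf2 and by 0.95 ± 0.30 without. There its arrays overlapped, at 3.33, 3.89 and 4.69 against 4.72, 4.56 and 5.48, and the call was lost without Rnf2 mutant replicate 1 (0.13) or 2 (0.087) or double mutant replicate 3 (0.13). Dhtkd1, a mitochondrial dehydrogenase gene, changed in opposite directions, by -1.51 ± 0.15 with Rnf2 and by 0.48 ± 0.15 without, a rise whose call was lost without Rnf2 mutant replicate 3 (0.091) or double mutant replicate 2 (0.068) or 3 (0.083).

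Genes on chromosome 17, where Ring1 lies, were frequent in this group. They made up 15 of the 117 genes (12.8%), against 4.52% of all genes, and 14 of the 87 that changed in the same direction (16.1%). This was not particular to chromosome 17. Chromosome 19 held 11 of the 117, Gsto2 and Cpn1 among them, with 709 genes measured against 978 on chromosome 17. All 11 changed in the same direction in both settings. Within 10 Mb of Ring1 there were 7 of the 117 (5.98%), against 2.16% of all genes. The largest change of these was that of Cyp39a1, a hydroxylase of bile acid synthesis, named after its values were seen, at -1.05 ± 0.09 with Rnf2 and -1.09 ± 0.09 without. Syngr3, Jpt2, Tbl3 and Noxo1 were lower and Mucl3 higher in both settings, whereas H2-K1 changed by -0.48 with Rnf2 and by 1.06 without. The sources used here do not say which strain's copy of this region, or of chromosome 19, each oocyte carried. The part of strain in these changes was not tested.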

How the data were processed

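The authors deposited log2 intensities, 1 per probe set and array, for 12 arrays. Per the submitters' processing notes R 2.10.0 and affy were used. The sources used here do not give the background correction, summarisation or genome build. Per the labels' protocols, RNA was amplified as whole-transcriptome cDNA before hybridisation, which can compress differences. The number of arrays limits the precision, and the files hold no detection calls.

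The authors' annotation tied 23402 of 34760 probe sets to 1 gene each, and these were used. Symbols were updated through RefSeq GRCm38.p6 (20207 by gene number, 146 by accession, 859 by symbol, 597 by older symbol, 1593 kept as given). The brightest probe set stood for a gene with several.

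One mean per genotype was fitted to all 12 arrays with limma 3.58.1 (lmFit, eBayes) in R 4.3.3, with Benjamini-Hochberg adjustment over 21621 genes per comparison. Errors are standard errors of this fit. The fit was tested on simulated data. The comparisons were double mutant against Rnf2 mutant, Ring1 mutant against control, their difference (the interaction) and Rnf2 mutant against control. Lists are described by counts and medians without a test. Named genes are Ring1, Rnf2, the 12 largest rises and falls called with arrays apart, 5 interactions per direction, 8 genes called in both Ring1 comparisons with the largest changes in the Ring1 mutant, and per list the 3 largest rises and 2 largest falls, shown in part; some are not reported here. The lists and members were chosen with earlier results of these data known. Replicate numbers do not pair the arrays.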

Additional observations from a re-analysis of the deposited data

Results flagged for a closer look

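The change with Ring1 loss differed between Rnf2-deleted and Rnf2-intact oocytes for 4112 genes, by limma's test of the difference itself. Those settings also differ in Cre, which cannot be told apart from Rnf2 deletion here. The genes named for the largest differences on the higher side were Plod2 (4.48 log2), Amigo2 (4.47), Bmp2 (4.45), Rbm46 (4.34) and Ddah1 (4.29). On the lower side they were Rpl27a (-3.07), Spam1 (-2.57), Cldn15 (-2.38), Ighv1-43 (-2.34) and 1700010D01Rik (-2.26). The other probe sets of Rpl27a read 0.85 and -0.60 log2 in double mutant against Rnf2 mutant oocytes, and Ighv1-43 belongs to a large multigene family.

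Probe sets that name no single gene carried signal as well. Of 11358 such probe sets 855 (7.53%) were called in double mutant against Rnf2 mutant oocytes by limma, 197 higher and 658 lower, against 26.2% of the probe sets that name 1 gene.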

How the results depend on the processing

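The double mutant against Rnf2 mutant count of 6527 lay between 5854 and 9164 under the alternatives on all 6 arrays, and between 5569 and 5953 without single arrays (higher 2600 to 2901, lower 2818 to 3226). The count of lower genes moved from 3516 to 7012 with arrays centred on the median gene and to 2169 centred on the most abundant 25%, and that of the interaction from 1948 to 3837 and 1289. Without single arrays the interaction count was 3482 to 3838 (higher 1883 to 2079, lower 1565 to 1839). Ring1 mutant against control had 168 calls (66 higher, 102 lower), 303 (116 and 187) with an intensity trend and robust variance, 47 (16 and 31) with only the arrays compared, and 73 to 121 (28 to 43 and 39 to 79) without single arrays. Genes called in both Ring1 comparisons moved from 117 to 203, 32, and 52 to 115 under the same settings. With the replicate number as a block 6349 genes were called in the double mutant (2981 higher and 3368 lower), 142 in the Ring1 mutant and 3857 in the interaction. Deviations of same-numbered arrays correlated at -0.036, 0.011 and -0.040 between double and Rnf2 mutant arrays, so the numbers do not pair them. Of 2396 values of 161 named genes under the alternatives, 2285 kept direction and call, 110 values of 23 genes lost the call, 1 (Ring1, -0.26 log2 centred on the median gene, adjusted p = 0.041 in limma) gained it and 0 reversed. Under the block the calls of L3mbtl2 (adjusted p = 0.067 in limma), Rbl2 (0.053) and Nlrp5 (0.056) were lost. Genes near the floor have compressed changes, and 3 arrays per group limit what small differences can be seen.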

Other observations

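Of 769 measured X-linked genes 172 (22.4%) rose and 91 (11.8%) fell, against 13.9% and 16.3% of all genes, with a median of 0.00 log2 against -0.03 over all genes, and the balance reversed with arrays centred on the median gene (128 and 200). At least 2-fold rises made up 6.89% of X-linked genes, against 2.90% of all genes, and chromosome 18 was next at 4.28%. Of 17 X-linked MAGE and Xlr family genes 4 rose and 2 fell (4 and 5 centred on the median gene). The MAGE genes Mageb4 and Maged1 rose by 3.17 ± 0.12 and 1.38 ± 0.09, and Magea10 fell by 1.78 ± 0.08, from 6.95, 7.16 and 7.01 to 5.26, 5.21 and 5.33. Of 467 genes within 10 Mb of Ring1, 42 rose and 98 fell (72 and 68 centred on the most abundant genes), and of 100 within 10 Mb of Rnf2, 27 rose and 12 fell (20 and 27 centred on the median gene). Pxt1, near Ring1, fell by 1.20 ± 0.07.

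Housekeeping lists are set against the 13.9% of all genes that rose and the 16.3% that fell. Among 74 ribosomal protein genes of the cytosol 16 (21.6%) fell and 2 (2.70%) rose, a share of falls near that of all genes, with a median of -0.06 log2. Among 94 nuclear genes of oxidative phosphorylation 27 (28.7%) fell and 5 (5.32%) rose, with a median of -0.11. Of these lists 71 and 91 genes had a mean above the floor. When the 12961 genes above the floor were fitted alone, 3654 fell and 2600 rose. The share of falls in oxidative phosphorylation genes is close to that of such genes. Falls outnumbered rises in both lists under each scaling (7 rises and 8 falls, and 13 rises and 17 falls, centred on the most abundant genes). Atp5k, a subunit of ATP synthase, fell by 0.67 ± 0.08, and Cox8c rose by 1.58 ± 0.12.

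In Rnf2 mutant against control oocytes limma called 30 genes (0.139%), and 1442 at an unadjusted p below 0.05. These groups differ in Cre as well as in Rnf2, and the parts of Cre and Rnf2 cannot be told apart. That comparison shares the Rnf2 mutant arrays with the main comparison, double mutant against Rnf2 mutant, so the values are only set side by side. These genes were named after their values were seen. Mt1, a metallothionein, changed by 4.79 ± 0.17 log2 in Rnf2 mutant against control oocytes. It read -0.07 ± 0.17 in the main comparison, which was not called. Its mean was 10.19 in Rnf2 mutant and 10.11 in double mutant oocytes, both with Cre. Without Cre it was 5.39 in control and 5.31 in Ring1 mutant oocytes. Ptgs2 changed by 1.12 and 3.01, Plac1 by 1.11 and 2.67, the prolactin family gene Prl8a2 by 1.04 and 2.52, and the BMP antagonist gene Chrdl1 by 0.74 and 2.58. The ephrin receptor gene Epha7 changed by -1.06 and 3.08, and Arl8a by -1.18 and 1.31.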
